A study of Homo sapiens with 6 samples.

Results

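EPAS1 encodes HIF-2alpha, 1 of the oxygen-regulated subunits of the hypoxia-inducible factors (HIFs). It is described here with 9 other genes of the HIF system, 10 genes of the 26485 in the count tables. The genes were taken by symbol: the alpha subunits EPAS1, HIF1A and HIF3A, the beta subunits ARNT and ARNT2, the prolyl hydroxylases EGLN1, EGLN2 and EGLN3, the ubiquitin ligase subunit VHL and the asparaginyl hydroxylase HIF1AN. The set was chosen by the lower EPAS1 RNA of the knockout libraries described here, and not by values of the other 9 genes. The knockout difference of EPAS1 is therefore given as a description with no test, and the tests concern its partners, its regulators and comparisons that did not choose it.

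The samples were 6 RNA-seq libraries of K562 cells, an established human myeloid leukaemia line with erythroid features, grown in IMDM with 10% fetal bovine serum. The control group carried the guide sgNeg2 and the genotype label WT. The other groups carried ZNF410 sgRNA#1 or ZNF410 sgRNA#2 and the label ZNF410 KO, and are called sgRNA1 and sgRNA2. Each group had 2 libraries, numbered replicate 1 and replicate 2, and knockout against wild type compares 4 libraries with 2. The labels do not say whether a knockout line was a clone or a pool, what part of the gene the guides cut, or whether the replicates were separate cultures, so p-values measure the spread between these libraries, which may be technical. No oxygen level was given in the labels, and all cells shared 5% CO2.

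HIFs are pairs of an alpha subunit and the beta subunit ARNT, which bind hypoxia response elements in DNA. When oxygen is present, EGLN enzymes hydroxylate prolines of the alpha subunit, the VHL ligase recognises the hydroxylated protein, and the proteasome degrades it. HIF1AN hydroxylates an asparagine of the alpha subunit and so blocks its coactivators. Most of this control acts on protein, which RNA-seq does not measure. In the erythroid lineage and its surroundings HIF-2alpha is known for driving erythropoietin and iron uptake genes. ZNF410 is a zinc-finger transcription factor best known for activating CHD4, which encodes a remodeller in the NuRD complex.

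Gene counts summed to 8788816 to 9537470 per library, so that a count of 0 allowed up to 3 counts, or 0.315 to 0.341 CPM (counts scaled to a common library size), for counting error only. The labels were checked first. ZNF410 had 331 and 322 counts in the controls (replicates 1 and 2), 175 and 234 in the sgRNA1 pair, then 157 and 190 in the sgRNA2 pair, and CHD4 had 589.5 and 666.3 CPM in the controls and 283.8 to 325.8 CPM in the 4 knockout libraries. Both genes were lower in every knockout library than in either control, and both passed the edgeR test with replicate number in the fit, ZNF410 at adjusted p = 0.00226 and CHD4 at adjusted p = 1.38e-08, and neither without it. Of 9 erythroid markers, 9 were detected in all libraries, with summed levels of 2181 to 3868 CPM in the controls and 2504 to 5383 CPM in the knockout libraries. The endothelial markers CDH5, VWF and KDR had 0 whole counts in all 6 libraries (VWF had up to 3 estimated counts), and the fourth, TEK, reached 0.109 CPM. The summed level of 3 lymphoid markers was 40.2 to 78.9 CPM in the controls and 33.6 to 53.2 CPM in the knockout libraries, and that of 3 epithelial markers 395.1 to 542.9 CPM and 346 to 531.3 CPM.

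The promoters of EPAS1 and HIF1A, the alpha subunits with measurable RNA, are shown because the first gene was lower in knockout and the other was not called. The 250 bases before the start site (for HIF1A the first of 2 listed starts) are given 5′ to 3′, from RefSeq on GRCh38.p14, plus strand, EPAS1 at chr2:46297157-46297406 and HIF1A at chr14:61695263-61695512. Capitals mark a hypoxia response element core, ACGTG or GCGTG, searched on both strands.
EPAS1: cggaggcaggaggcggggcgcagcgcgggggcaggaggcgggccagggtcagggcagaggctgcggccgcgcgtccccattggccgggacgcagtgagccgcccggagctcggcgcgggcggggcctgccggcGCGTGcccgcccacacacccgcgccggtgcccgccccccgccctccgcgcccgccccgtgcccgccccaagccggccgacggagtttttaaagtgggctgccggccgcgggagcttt
HIF1A: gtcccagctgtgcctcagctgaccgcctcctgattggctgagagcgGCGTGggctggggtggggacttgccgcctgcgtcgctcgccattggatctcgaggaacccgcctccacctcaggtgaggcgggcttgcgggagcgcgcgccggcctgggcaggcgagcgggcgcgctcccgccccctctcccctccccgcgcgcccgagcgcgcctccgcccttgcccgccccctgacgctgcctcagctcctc
Each window held 1 match, which began 117 bases before the start site in EPAS1 and 204 bases before it in HIF1A. Of 35116 RefSeq promoter windows of 300 bases, from 250 before to 50 after the start, 48.45% held at least 1 such match. CCCATAA, part of the sequence that ZNF410 is known to bind, was not found on either strand of the 300-base EPAS1, HIF1A or CHD4 windows, and 1.8% of all windows held it. As CHD4 is a known target and its window held none, the search cannot tell whether ZNF410 binds near EPAS1. GC content of the 300-base window was 80% for EPAS1 and 73% for HIF1A.

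EPAS1 (chr2:46297407-46386697, GRCh38) was lower in every knockout library than in either control, with both guides and both replicate numbers. The controls had 235 and 218 counts (replicates 1 and 2), the sgRNA1 libraries 98 and 97, and the sgRNA2 libraries 125 and 84. As CPM, scaled for library composition, these were 27.1 and 23.0 in the controls, 10.8 and 10.2 in the sgRNA1 pair, then 13.5 and 9.13 in the sgRNA2 pair. The lowest control stood well above the highest knockout library, so the groups did not overlap. All 4 knockout libraries lay below both controls for 4.40% of the genes tested, and EPAS1 was chosen by this difference. The mean was 25.1 ± 2.90 CPM (SD, n = 2) in wild type and 10.9 ± 1.87 CPM (SD, n = 4) in knockout. The fitted level in knockout was 0.435 times that in wild type, a log2 fold change of -1.20 with or without replicate number in the fit. Among the 12282 genes tested, 24 had a lower log2 fold change than EPAS1, which ranked 25th from the lowest in both fits. In bulk RNA, fewer cells with EPAS1 RNA and less EPAS1 RNA per cell cannot be told apart.

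The second set of tables, with estimated counts and FPKM (fragments per kilobase of transcript, scaled for depth), gave the same size of difference. EPAS1 had 5.69 and 4.44 FPKM in the controls, 2.37 and 2.11 FPKM in the sgRNA1 pair, then 2.56 and 1.74 FPKM in the sgRNA2 pair. Its log2 fold change in estimated counts was -1.21 with replicate number in the fit. Matched to the control of the same number, the CPM of EPAS1 differed by -1.33 and -1.18 on the log2 scale with sgRNA1 (replicates 1 and 2), and by -1.004 and -1.33 with sgRNA2. No pair came near 0.

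**Figure D1:**
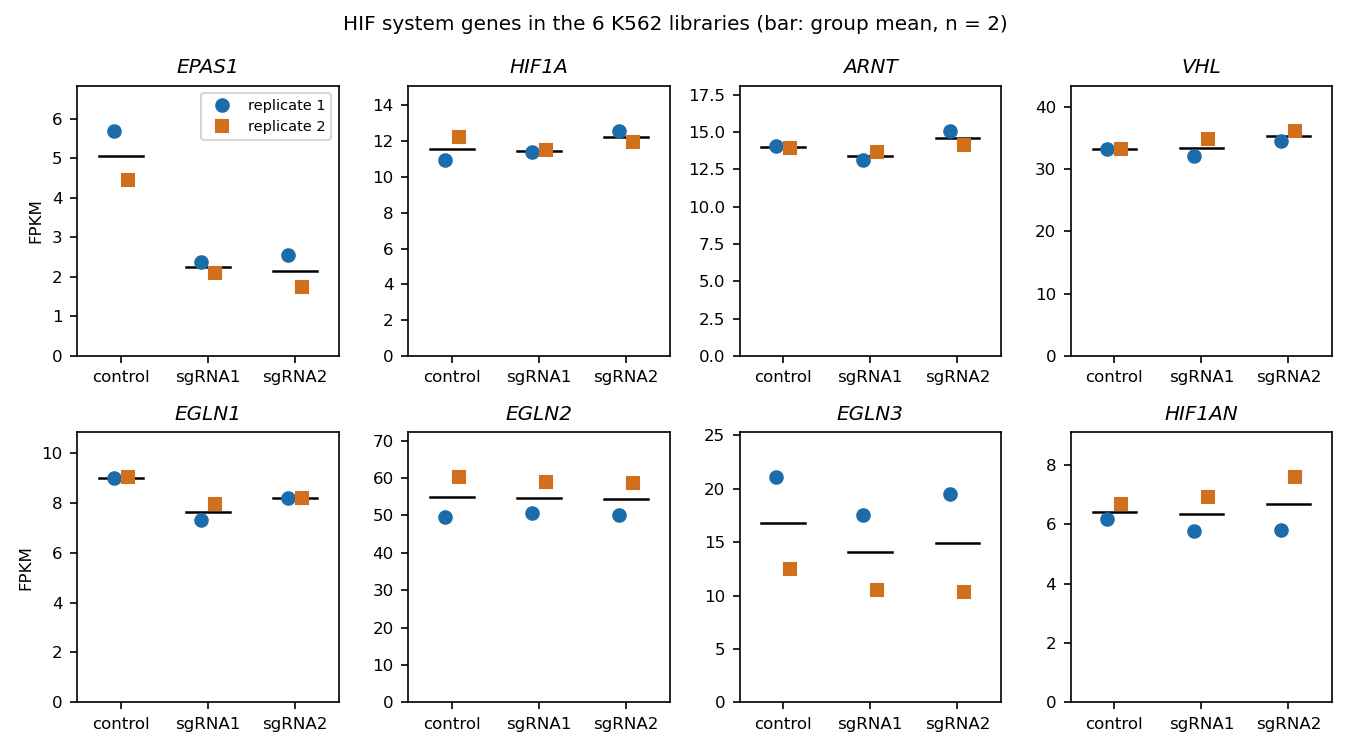
FPKM (vertical axis, linear from 0) of the 8 HIF system genes above 0.01 FPKM in the control, sgRNA1 and sgRNA2 groups; each point is 1 library (circles replicate 1, squares replicate 2) and each bar the group mean (n = 2). EPAS1 lay at 4.44 to 5.69 FPKM in the controls and 1.74 to 2.56 FPKM in knockout, while EGLN3 separated by replicate number within each group.

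No such difference was seen in HIF1A (chr14:61695513-61748258), the alpha subunit that mediates most acute hypoxia responses. It had 46.6 and 52.1 CPM in the controls, 48.4 and 49.2 CPM in the sgRNA1 pair, then 54.4 and 49.1 CPM in the sgRNA2 pair. The knockout values lay among and just above the control values. Its log2 fold change was 0.03 (SE 0.101, edgeR adjusted p = 0.9999), and the 95% interval with replicate number in the fit ran from -0.15 to 0.20 (adjusted p = 0.937). Per length, EPAS1 made up 34.2% and 26.6% of the summed EPAS1 and HIF1A FPKM in the control libraries. That share was 17.2% and 15.5% with sgRNA1 and 16.9% and 12.7% with sgRNA2, so HIF1A was the major measured alpha transcript in all 6 libraries. The third alpha subunit, HIF3A (chr19:46297042-46343433), had no count in any library, and 1 estimated count in sgRNA2 replicate 2 gave it 0.01 FPKM there.

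ARNT (chr1:150809713-150876599), the shared beta subunit, had 14.05 and 13.97 FPKM in the controls, 13.14 and 13.65 FPKM in the sgRNA1 pair, then 15.08 and 14.11 FPKM in the sgRNA2 pair. Control values fell inside the range of the knockout values. Its log2 fold change in counts was 0.06, with a 95% interval of -0.09 to 0.22 with replicate number in the fit (edgeR adjusted p = 0.783), and in estimated counts it was -0.0095. ARNT FPKM was 0.844 and 0.838 times the summed EPAS1 and HIF1A FPKM in the controls and 0.953 to 1.03 times that sum in the knockout libraries. ARNT2 (chr15:80404382-80597933), its paralogue known from brain and kidney, was listed at 0 in every library of both tables.

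VHL (chr3:10141778-10153667), the substrate-binding subunit of the ligase that marks hydroxylated HIF-alpha, had 150.4 and 148.2 CPM in the controls, 155.5 and 169.7 CPM in the sgRNA1 pair, then 164.4 and 161.1 CPM in the sgRNA2 pair. All 4 knockout libraries stood above both controls in CPM, as did 5.05% of the 12282 genes tested, but in FPKM sgRNA1 replicate 1 (32.11) lay below both controls (33.26 and 33.24). The log2 fold change was 0.12 (SE 0.0585 with replicate number, 95% interval -0.0011 to 0.25, edgeR adjusted p = 0.389), and 0.04 in estimated counts. The difference did not pass the test in either table.

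EGLN1 (chr1:231363756-231422287), which encodes PHD2, the main oxygen sensor among the prolyl hydroxylases, had 70.5 and 67.5 CPM in the controls, 51.7 and 61.9 CPM in the sgRNA1 pair, then 62.3 and 63.4 CPM in the sgRNA2 pair. Every knockout library was thus below both controls, as for 4.40% of the genes tested. Its log2 fold change was -0.21 (SE 0.109, edgeR adjusted p = 0.9999), and -0.21 (SE 0.0822, 95% interval -0.38 to -0.03, adjusted p = 0.283) with replicate number. Estimated counts gave -0.20 (SE 0.0621, adjusted p = 0.128). EGLN1 thus lay on the same side as EPAS1 in all libraries at a smaller size, and did not pass the test after adjustment over all genes. With replicate number the value was -0.12 without control replicate 1 and -0.31 without control replicate 2.

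EGLN3 (chr14:33924227-33951074), which encodes the hypoxia-inducible hydroxylase PHD3, had 56.5 and 32.5 CPM in the controls, 45.1 and 28.3 CPM in the sgRNA1 pair, then 51.3 and 25.0 CPM in the sgRNA2 pair. Replicate 1 was higher than replicate 2 in every group, and this split was wider than any difference between guides. Each knockout library lay below the control of its own number, as for 14.9% of the genes tested. The log2 fold change in knockout was -0.25 (SE 0.349) without replicate number and -0.25 (SE 0.0912, 95% interval -0.45 to -0.06, edgeR adjusted p = 0.222) with it, and did not pass the test. Without replicate number and without control replicate 1 it was 0.19.

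EGLN2 (chr19:40799191-40808434), which encodes PHD1, could be read from 1 table only. The count tables gave it 2 and 1 counts in the controls, 1 and 4 in the sgRNA1 pair, then 1 and 2 in the sgRNA2 pair, whereas the estimated counts were 1580 to 2080 per library. Over the 6 libraries the whole counts came to 0.000997 of the estimated counts, against a median ratio of 0.553 over all tested genes. EGLN2 overlaps an annotated readthrough gene, RAB4B-EGLN2, which had 0 counts in every library and at most 15.2 estimated counts. In FPKM, EGLN2 stood at 49.5 and 60.1 in the controls, 50.5 and 58.8 in the sgRNA1 pair, then 49.98 and 58.5 in the sgRNA2 pair. The groups overlapped almost fully, and the log2 fold change in estimated counts was -0.014 (SE 0.0522, 95% interval -0.13 to 0.10, edgeR adjusted p = 0.939).

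HIF1AN (chr10:100535943-100559998), which encodes the asparaginyl hydroxylase FIH, had 46.8 and 45.2 CPM in the controls, 41.5 and 53.3 CPM in the sgRNA1 pair, then 43.9 and 51.4 CPM in the sgRNA2 pair. With each guide, 1 library lay below the controls and 1 above. The log2 fold change was 0.04 (SE 0.0892, edgeR adjusted p = 0.897) with replicate number.

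Of the 9 genes other than EPAS1, 6 could be tested in whole counts and 7 in estimated counts, and none was called. The count was 0 without replicate number, when 0.00% of the 12282 genes were called (284 had an unadjusted p under 0.05, none of them in this set), and 0 with it, when 1.84% were called. It was also 0 in estimated counts with replicate number, when 3.03% of 12764 genes were called. With replicate number, EGLN1 and EGLN3 had an unadjusted p under 0.05 (0.0244 and 0.0139), 2 of 6 beside 1590 of 12282 genes, and the same 2 did in estimated counts, 2 of 7 beside 1981 of 12764 genes. With so low a background and so few genes, a count of 0 says little about the set. With replicate number in the fit, the intervals of the 6 tested genes reached no lower than -0.45, and without it that of EGLN3 ran from -1.08 to 0.58. The median log2 fold change of the 6 tested genes was 0.034 with replicate number, beside 0.0045 over all genes tested.

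**Figure D2:**
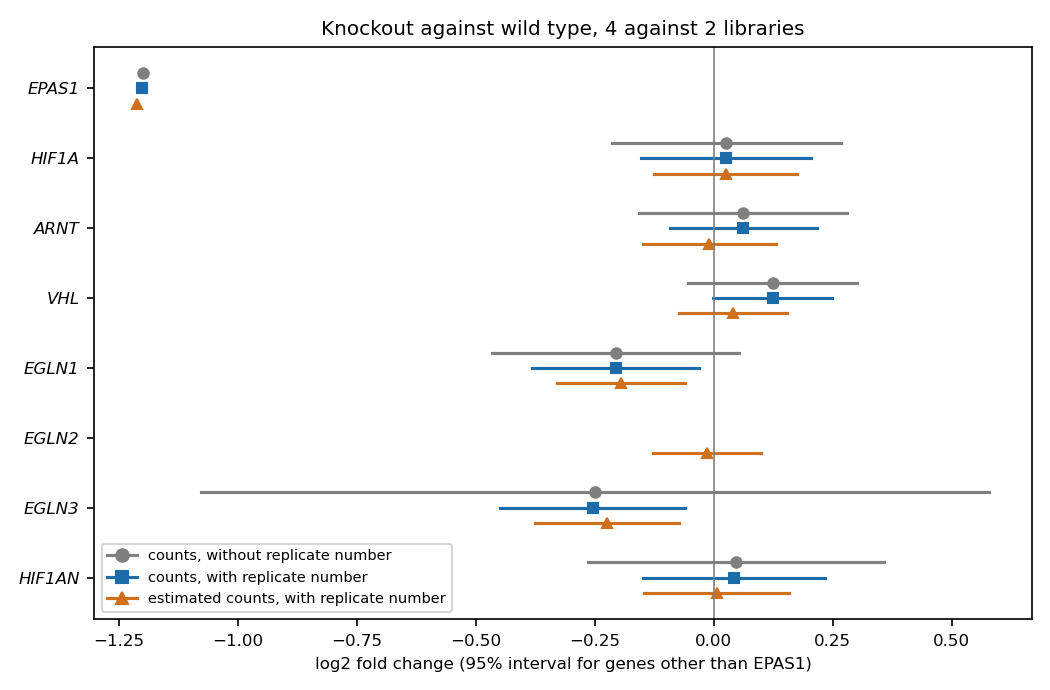
Log2 fold change of knockout against wild type (horizontal axis, 4 against 2 libraries) for 8 HIF system genes, with 95% intervals for those other than EPAS1, from whole counts without replicate number (grey circles), whole counts with it (blue squares) and estimated counts with it (orange triangles); EGLN2 had too few whole counts to be tested. EPAS1 lies near -1.20 in all 3 fits, and the other genes lie within 0.26 of 0.

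Per length, the control libraries ordered the genes from EGLN2 (mean 54.8 FPKM) through VHL (33.3), EGLN3 (16.8), ARNT (14.0), HIF1A (11.6), EGLN1 (8.99) and HIF1AN (6.43) to EPAS1 (5.07 FPKM). EGLN3, with 21.05 and 12.52 FPKM, overlapped ARNT, and no other neighbours in the order overlapped between the 2 control libraries. EPAS1 was thus the lowest of the expressed members in both controls, and its mean in knockout was 2.195 ± 0.355 FPKM (SD, n = 4). HIF1AN, the next in order, had 6.52 FPKM in knockout.

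EPAS1 values were close with both guides. Its log2 fold change against the control was -1.26 with sgRNA1 and -1.14 with sgRNA2, and with replicate number -1.25 and -1.15. Both comparisons use the same 2 control libraries. The difference between the guides, which did not choose the genes, was 0.11 (SE 0.252, edgeR adjusted p = 1) and 0.10 (SE 0.176, 95% interval -0.28 to 0.48, adjusted p = 0.9995) with replicate number. None of the 7 tested members was called between the guides with replicate number, when 0.0896% of all genes were. No other member was called with sgRNA1 alone, when 0.887% of genes were called with replicate number, or with sgRNA2 alone, when 1.38% were. EGLN1 was -0.28 (SE 0.0923, adjusted p = 0.25) with sgRNA1 and -0.13 (SE 0.0915, adjusted p = 0.612) with sgRNA2.

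Replicate number separated some members, EGLN3 above all. In a fit with group and number, 45.0% of the 12282 genes were called between replicate 2 and replicate 1, so a call here is common. Of the 7 members tested in whole counts, EGLN3 was the 1 called, lower in replicate 2 by a log2 fold change of -0.83 (SE 0.0926, edgeR adjusted p = 6.52e-06). Within groups its CPM differed by -0.80 in the controls, -0.67 with sgRNA1 and -1.04 with sgRNA2 on the log2 scale. EPAS1 was lower in replicate 2 in each of the 3 groups, by a fitted -0.29 (SE 0.136, adjusted p = 0.0964), which did not pass the test in whole counts. That value was -0.17 without sgRNA2 replicate 1 and -0.38 without sgRNA1 replicate 2. In estimated counts, where 52.6% of genes were called, EPAS1 passed at -0.36 (SE 0.107, adjusted p = 0.0122). EGLN2 rose there by 0.24 (SE 0.0498, adjusted p = 0.00154) and HIF1AN by 0.24 (SE 0.0694, adjusted p = 0.00999), and EGLN3 was lower by -0.81 (adjusted p = 1.34e-06). HIF1A, ARNT, VHL and EGLN1 did not pass in either table. The labels do not say what the numbers stand for.

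**Figure D3:**
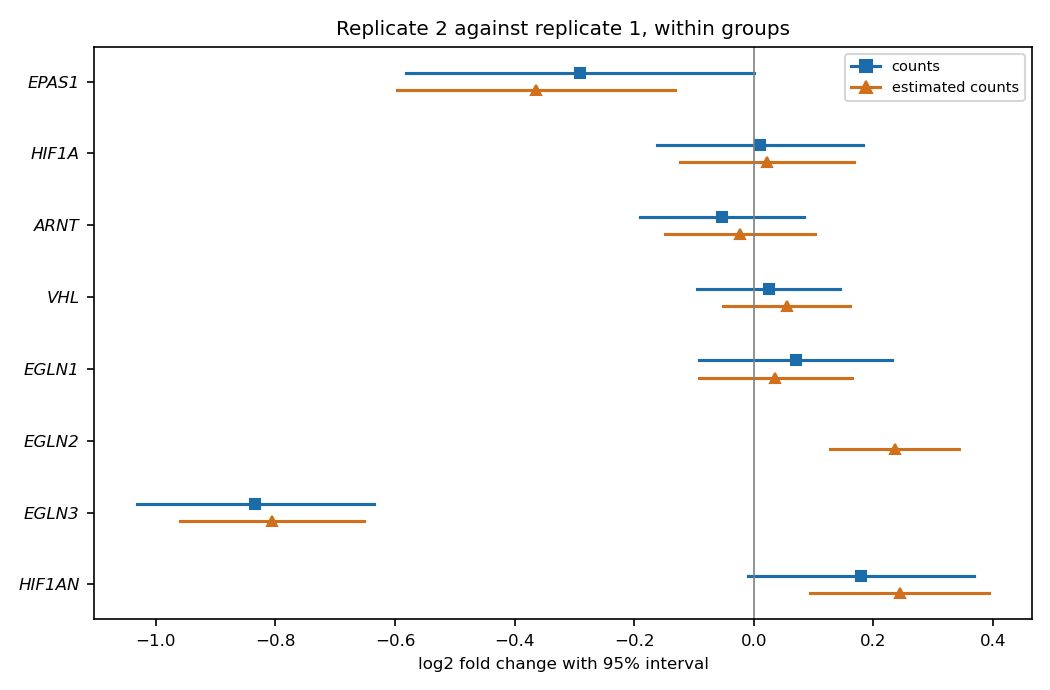
Log2 fold change of replicate 2 against replicate 1 (horizontal axis, with 95% intervals, 3 against 3 libraries, group in the fit) for 8 HIF system genes, from whole counts (blue squares) and estimated counts (orange triangles). EGLN3 lies at -0.83 and -0.81, and the intervals of HIF1A, ARNT, VHL and EGLN1 cross 0 in both tables.

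The knockout difference of EPAS1 was of like size in both numbers. Averaged over guides, its log2 CPM differed from the control by -1.17 in replicate 1 and -1.25 in replicate 2. The test of that change was -0.10 (SE 0.277, edgeR adjusted p = 0.951). No member was called for a knockout difference that depended on number, when 0.244% of all genes were. HIF1AN had the smallest p among the members, at 0.35 (SE 0.152, unadjusted p = 0.0361, adjusted p = 0.551). It was below its control in replicate 1 and above it in replicate 2 with both guides.

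The wider HIF pathway was read from 5 gene lists and the genes beside EPAS1 on chromosome 2. Without replicate number no gene of any list was called in knockout, and the counts below are from the fit with replicate number, beside 1.84% called among all genes (0.651% lower, 1.19% higher). Of 40 hypoxia-induced HIF targets, 32 could be tested, 2 fell, none rose and 30 did not pass the test. The median log2 fold change of the 32 was -0.056 (-0.085 in estimated counts), with 23 below 0 and 9 above. Over all genes it was 0.0045, with 5950 below 0 and 6332 above. An unadjusted edgeR p under 0.05 was found for 7 of the 32, beside 1590 of 12282 genes.

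SLC2A3, which encodes the high-affinity glucose transporter GLUT3, was the larger of the 2. It had 182.1 and 84.9 CPM in the controls, 98.8 and 47.1 CPM in the sgRNA1 pair, then 89.1 and 40.4 CPM in the sgRNA2 pair. Each knockout library was at 0.476 to 0.554 times its own control, and 14.9% of the genes tested lay below theirs in all 4. The groups overlapped because replicate 2 was lower throughout. The log2 fold change was -0.96 (SE 0.0705, edgeR adjusted p = 2.77e-06) with replicate number and -0.95 (SE 0.436, adjusted p = 0.9999) without it. With 1 library left out it stayed between -0.998 and -0.917 with replicate number. In the fit that lacks it, the value was -0.31 when control replicate 1 was left out and -1.40 when control replicate 2 was. Between the numbers SLC2A3 differed by -1.10 (adjusted p = 8.83e-09). Its near-identical copy SLC2A14 had 3 to 13 counts per library.

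GPI, which encodes glucose-6-phosphate isomerase of glycolysis, had 395.2 and 465.4 CPM in the controls, 315.6 and 402.6 CPM in the sgRNA1 pair, then 320.1 and 369.9 CPM in the sgRNA2 pair. It lay below the control of its number in 4 of 4 libraries, as for 14.9% of the genes tested. Its log2 fold change was -0.29 (SE 0.0512, edgeR adjusted p = 0.00738) with replicate number, and without it the adjusted p was 0.9999. Without control replicate 1 the call was lost (adjusted p = 0.0648), at a value of -0.28. Other glycolytic HIF targets did not pass: LDHA was at -0.09, PGK1 at -0.06, ENO1 at -0.04, ALDOA at -0.13, HK2 at -0.14, PFKFB3 at -0.05, PFKFB4 at -0.03 and TPI1 at 0.02 on the log2 scale, values named for their pathway and after they were seen. Estimated counts put PFKFB3 at -0.15 and PFKFB4 at 0.05, with neither called. BNIP3, a mitophagy receptor, was the highest of the 32 at 0.43 (edgeR adjusted p = 0.0515). In estimated counts it passed at 0.42 (adjusted p = 0.0177), and there 1 target was higher and 2 lower.

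The same targets differed widely by replicate number, with 8 higher and 11 lower in replicate 2, beside 45.0% of all genes called. The largest difference was that of DDIT4, a stress-induced inhibitor of mTORC1, at a log2 fold change of -3.96 (edgeR adjusted p = 2.54e-12). VEGFA, the angiogenic growth factor, was lower by -1.08 (adjusted p = 1.32e-06), BHLHE40 by -1.10 and STC2 by -1.82. SLC2A1, which encodes GLUT1, was higher by 0.68 (adjusted p = 5.12e-07), TFRC, the transferrin receptor, by 0.74 and BNIP3 by 0.54. The HIF targets thus moved in both directions between the numbers, EGLN3 and SLC2A3 with those lower in replicate 2.

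Genes known to prefer HIF-2alpha over HIF-1alpha were in part at or near the limit of counting. Of 10 such genes read here, 5 could be tested and none was called, with a median of 0.015. EPO, TGFA, POU5F1, ADORA2A and ANGPT2 had at most 8 counts in any library. CCND1, which encodes cyclin D1, was at -0.13 (SE 0.0812, edgeR adjusted p = 0.565). DLL4, a Notch ligand, had 8 and 0 counts in the controls, 17 and 6 in the sgRNA1 pair, then 19 and 2 in the sgRNA2 pair, and did not pass (1.44, SE 0.647, adjusted p = 0.358). Its value rests on the controls: it was 1.08 without control replicate 2, and 5.03 without control replicate 1, a fitted value against a lone control at 0 counts that depends on the prior count. In estimated counts, where the controls had 16 and 9, DLL4 was at 0.86 (SE 0.374, edgeR adjusted p = 0.291). Of the iron genes in the list, SLC11A2 was at 0.015 and CYBRD1 at 0.096 (0.028 and 0.199 in estimated counts), with neither called in either table.

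Of 9 genes read with the VHL ubiquitin ligase (subunits, NEDD8 and conjugating enzymes), all were tested and none was called, with a median of 0.026. NEDD8, which activates the cullin, stood furthest from 0 at -0.20 (edgeR adjusted p = 0.706), but was 0.11 in estimated counts, and its whole counts were 0.0566 of the estimated ones, so its value is uncertain. UBE2M, the NEDD8-conjugating enzyme, was at -0.13 (adjusted p = 0.383). Of 21 genes that act on HIF-alpha stability, translation or cofactors, 19 were tested and none was called, with a median of 0.0036, or -0.013 in estimated counts. OS9, reported to promote HIF-alpha hydroxylation, was at -0.19 (adjusted p = 0.165), or -0.087 without control replicate 1 and -0.305 without control replicate 2. WTIP, a LIM protein, was at 0.64 (adjusted p = 0.607). The coactivators EP300 and CREBBP were at 0.04 and -0.04.

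EPAS1 belongs to the bHLH-PAS transcription factors. Of 17 other family members and coactivators read here, 10 were tested, with a median of 0.103, 7 above 0 and 3 below, beside a median of 0.0045 with 6332 above 0 and 5950 below over all genes. In estimated counts the median of the 10 was 0.029. NPAS1, a family member known from neurons, was the furthest from 0. It had 27 and 37 counts in the controls, 53 and 50 in the sgRNA1 pair, then 49 and 56 in the sgRNA2 pair, so every knockout library stood above both controls, as for 5.05% of the genes tested. Its log2 fold change was 0.68 (SE 0.242, edgeR adjusted p = 0.222) with replicate number, and it did not pass the test. CLOCK, a circadian transcription factor of the family, had 20.1 and 25.2 CPM in the controls, 24.2 and 27.2 CPM in the sgRNA1 pair, then 26.6 and 31.1 CPM in the sgRNA2 pair. Each knockout library lay above the control of its own number in CPM, and 3 of 4 did in FPKM. The share of all tested genes placed above it was not counted. The groups overlapped, and the value of 0.27 (SE 0.110, adjusted p = 0.3005), or 0.15 in estimated counts, did not pass.

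**Figure D4:**
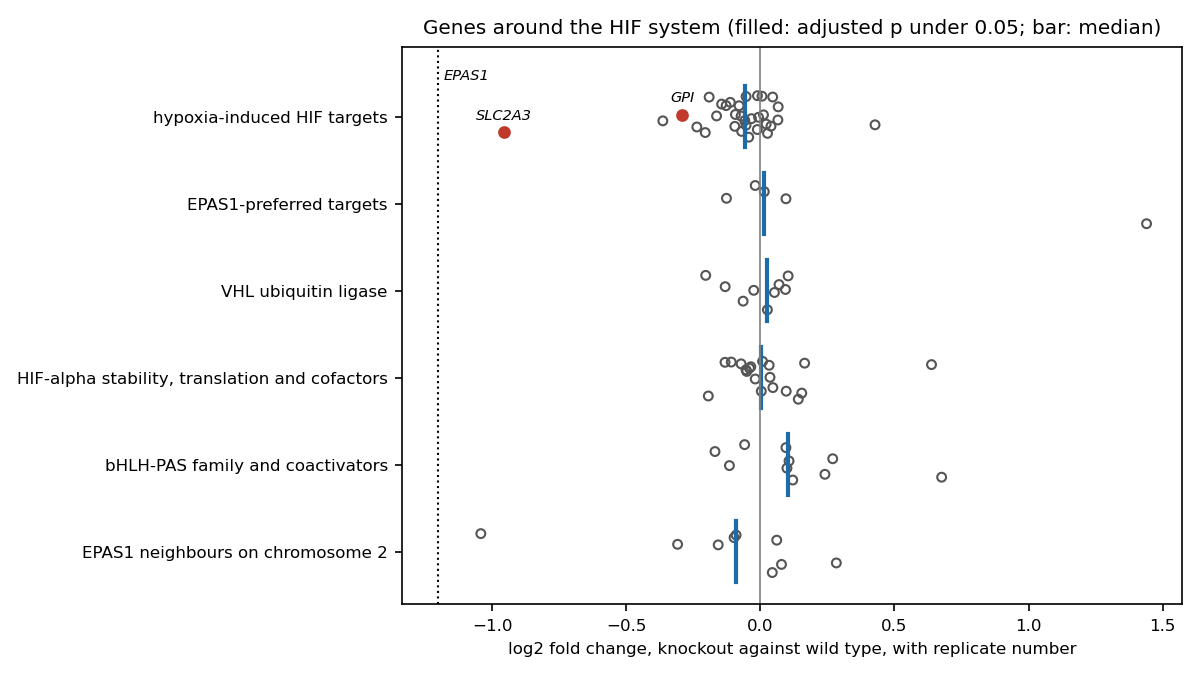
Log2 fold change of knockout against wild type with replicate number in the fit (horizontal axis) for each tested gene of the 6 lists as read here; filled red points have an adjusted p under 0.05, blue bars are list medians and the dotted line is EPAS1. The filled points are SLC2A3 (-0.96) and GPI (-0.29), and the medians lie between -0.090 and 0.103.

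Beside EPAS1 on chromosome 2, 11 neighbours were listed. Of these, 9 were tested and none was called, with a median of -0.090, or -0.013 in estimated counts. The closest tested gene before EPAS1, PRKCE at 109.4 kb, was at -0.31 (SE 0.306, edgeR adjusted p = 0.735), and at -0.054 in estimated counts. The closest after it, ATP6V1E2 at 125.2 kb, a subunit gene of the vacuolar proton pump, was at -1.04 (SE 0.356, adjusted p = 0.200). That value rested on 39 and 29 counts in the controls, 30 and 14 in the sgRNA1 pair, then 12 and 12 in the sgRNA2 pair, and it was -0.53 in estimated counts. One sgRNA1 library thus reached the control range, and ATP6V1E2 did not pass the test in either table.

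**Figure D5:**
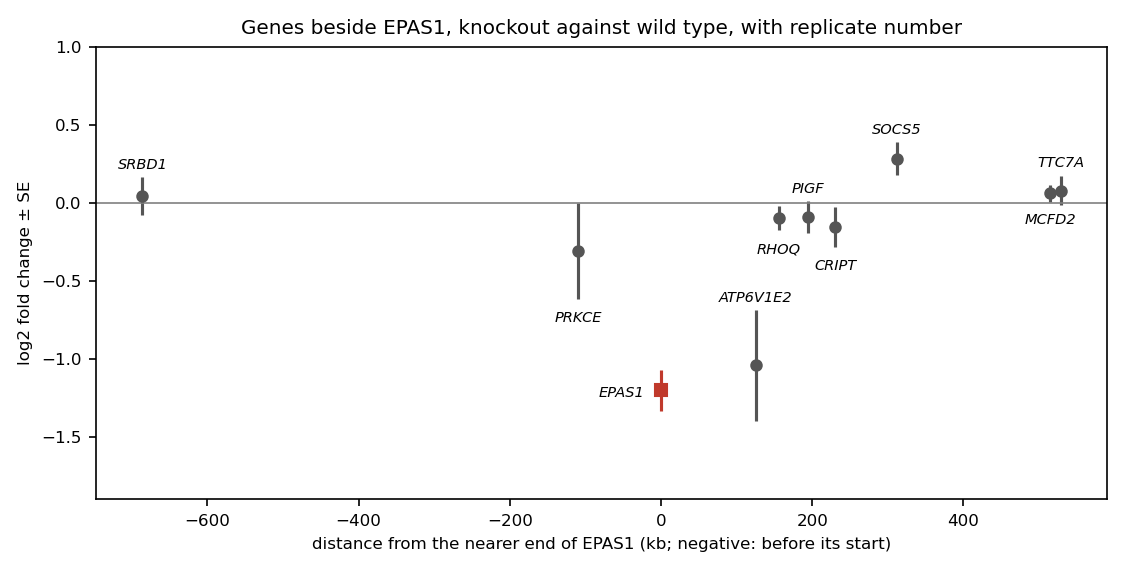
Log2 fold change with its SE (vertical axis, knockout against wild type with replicate number in the fit) against distance from the nearer end of EPAS1 in kb (horizontal axis). EPAS1 lies at -1.20 and ATP6V1E2 at -1.04 with a wide error, and the other 8 neighbours lie between -0.31 and 0.28. EPAS1 was chosen by this contrast, so an SE for it is not a test.

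Genes most like EPAS1 across the 6 libraries were found by Pearson correlation of log2 CPM, after removal of the mean of each replicate number. Among 667 genes whose mean reached 50 counts and whose SD reached 0.25, 35 had r over 0.9. The points share their libraries, and the measure follows the knockout contrast that singled out EPAS1, so r is a description. The 5 highest were MEF2C (0.981), PHF1 (0.979), CHD4 (0.976), TMEM185B (0.975) and MFSD6 (0.974). CHD4, the known target of ZNF410, stood among them with a log2 fold change of -1.04. MEF2C, a transcription factor of muscle and blood lineages, was at -0.50, or -0.47 in estimated counts, though its whole counts were 2.37 times the estimated ones. TMEM185B was at -0.55 and MFSD6 at -0.61. PHF1 was -0.85 in whole counts but 0.20 in estimated counts, so its likeness holds in 1 table only.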

How the data were processed

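RNA was measured in 6 K562 libraries. The submitters' processing notes name Trim Galore, HISAT2 2.2.1, SAMtools 1.9, HTSeq 0.6.1, RSEM 1.3.2 and DESeq2 1.36.0, and the build hg38, with no role or order. The strand setting was not given in the sources used here, so overlapping and antisense genes are uncertain. The deposited whole-number counts are per gene symbol, and 5 rows that name no gene held 61.6% to 62.6% of each table and were left out of totals and tests. The other tables give 3 measures of each gene: the authors deposited an estimated count, with the column names that RSEM writes per the file headers, an FPKM normalized by the authors for length and depth, and a deposited TPM. Estimated counts were rounded for testing. TPM values were not used.

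Counts were tested with edgeR 4.0.16 (quasi-likelihood, TMM, filterByExpr by group) in R 4.3.3, which left 12282 genes, or 12764 in estimated counts, and p-values were adjusted by Benjamini-Hochberg over all of them, with calls under 0.05. CPM values are TMM-scaled. SEs of fold changes, and the intervals built on them, were computed from the edgeR test statistic and so restate the test. They are therefore not printed for the knockout and single-guide differences of EPAS1 from the control. Knockout, guide, number and interaction effects were separate contrasts. The 3 groups share replicate numbers. Deviations of same-numbered libraries from group means correlated at r = 0.811, 0.757 and 0.824 over 9966 genes, so same-numbered libraries were treated as pairs, from the data alone, and the fit with replicate number is given where it changes a call. Replicates of a group differed by a chi-square per degree of freedom of 22.3 to 26.8 and were not duplicates. The scripts were tested on simulated data. Alternatives were DESeq2 1.42.0 (test and size factors), limma 3.58.1 on log2(FPKM + 1) or log2(FPKM + 0.1) with a mean FPKM of at least 0.5, other filters, estimated counts, each library left out, and, chosen after seeing the data, GC and length trends removed (94.2% of tested genes had a GC value). Positions come from a GRCh38 annotation. Promoters matched 8 of the 10 genes. Named genes were the 10 members, ZNF410, CHD4, in each list the genes called in knockout or otherwise the 2 furthest from 0, and the 5 most like EPAS1. The lists' counts leave out 2 genes that are not reported here. Members, lists and rules were chosen with earlier results of these data known.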

Additional observations from a re-analysis of the deposited data

Results flagged for a closer look

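Single libraries stood apart from the other 3 knockout libraries in 5 of 45 sets of 4 examined, where chance flags about 1 in 20. In each, the gap to the nearest library took more of the range than Dixon's 95% critical value for 4 values. HIF1A was high in sgRNA2 replicate 1, at 54.4 CPM against 48.4 to 49.2 CPM (ratio 0.874). EGLN1 was low in sgRNA1 replicate 1, at 51.7 CPM against 61.9 to 63.4 CPM (ratio 0.871), and without that library its log2 fold change with replicate number was -0.14. CLOCK was high in sgRNA2 replicate 2, at 2.83 FPKM against 2.25 to 2.30 FPKM (ratio 0.914). ATP6V1E2, beside EPAS1 on chromosome 2, was high in sgRNA1 replicate 1, at 3.30 CPM against 1.298 to 1.47 CPM (ratio 0.915). HIF3A was at 0.01 FPKM in sgRNA2 replicate 2 and 0 in the others (ratio 1), which rests on 1 estimated count.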

How the results depend on the processing

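The count of 0 called members besides EPAS1 held under all 25 other settings. EPAS1 was lower in all 25, which is a description only, since its fall in these same libraries chose the genes. It was at -0.92 with limma on log2(FPKM + 1), with or without the replicate block or FPKM filter. With each library left out it was -1.32 to -1.09 (-1.29 to -1.15 with the block). Counts over all genes depended on the replicate block. For knockout they were 226 with the block against 0, 19 with DESeq2 and 162 with its block, 1 with no count filter, 387 in blocked estimated counts, 1 with limma at either pseudocount or without its filter, 194 with its block, 247 with GC and length trends removed, and with libraries left out 0 to 2 or, blocked, 141 to 236. For sgRNA1 and sgRNA2 against the control they were 109 and 170 with the block, 6 and 4 with DESeq2, 53 and 73 with its block, 178 and 289 in blocked estimated counts, 1 each with limma at either pseudocount, 2 and 1 without its filter, 44 and 94 with its block, 126 and 199 with trends removed, and, blocked with libraries left out, 63 to 459 and 161 to 634. Between guides the block gave 11, DESeq2 with it 4, estimated counts 7, limma 2, limma unfiltered 1 and libraries left out 15 to 90. Between numbers DESeq2 called 3438 against 5529. The interaction count of 30 became 10 with DESeq2, 12 unfiltered, 14 in estimated counts and 9, 0 or 17 with limma (pseudocount 1, 0.1, unfiltered). Listed genes called were 2 with the block (2 with DESeq2 or limma, 3 in estimated counts or with trends removed, 1 to 4 with libraries left out) and 0 without it.

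Small values changed sign. ARNT was -0.0095 in estimated counts and -0.0031 or -0.0034 with limma, NEDD8 0.11 in both, and EGLN2 0.34 with no filter, on 1 to 4 counts. With a library left out, the knockout value of HIF1A ranged from -0.061 to 0.11, or from -0.092 to 0.14 blocked, EGLN3 from -0.60 to 0.19, HIF1AN from -0.014 to 0.10, or from -0.13 to 0.21 blocked, CCND1 from -0.41 to 0.33, or from -0.34 to 0.049 blocked, UBE2M from -0.30 to 0.066 and PRKCE from -0.97 to 0.80. Between numbers HIF1A ranged from -0.062 to 0.097, EGLN1 from -0.018 to 0.14 and VHL from -0.025 to 0.058. The causes were not tested. HIF3A, ARNT2 and 5 of the 10 HIF-2alpha-preferred targets had too few whole counts to be tested.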
